A study of Mus musculus with 3 samples.

Results

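The genes described here are 8 genes by which mast cells and basophils are recognised: the IgE receptor chains Fcer1a and Ms4a2, the granule proteases Cpa3, Mcpt8 and Prss34, the enzymes Hdc and Cyp11a1, and the transcription factor Gata2. They were chosen by name, with earlier results of these data known. Every probe set that the platform annotation pairs with 1 of them alone was taken. The annotation used here pairs 12 probe sets with 7 of the 8 genes, out of 18193 genes on the array. No probe set in it is paired with Prss34, so Prss34 has no value here. The brightest probe set of each of the 7 genes lay above the array median on all 3 arrays, so none passed the filter through 1 group alone.

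The cells were lineage marker-negative, Sca-1-positive bone marrow cells, isolated as progenitors from mice that were 10 weeks old. One array held RNA of wild type C57BL/6J mice, and 1 array each held RNA of the C57BL/6J transgenic lines labelled Tg(Ly6a-KDM1A*v2, Line 6 and Line 3. The construct's name joins Ly6a, the gene of the surface protein Sca-1, with KDM1A, the human symbol of the histone demethylase LSD1, and the sources used here do not give its insertion site or copy number in either line. The sources used here do not give the sex of the mice or how many were pooled. With 1 array per genotype, the differences have no replicate error, and none was tested.

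Mast cells and basophils are granulocytes that carry the high-affinity receptor for IgE. When antigen crosslinks bound IgE, the receptor signals through its beta and gamma chains and the cell releases histamine, proteases and cytokines. Both cell types arise in mouse bone marrow from progenitors that depend on the transcription factor GATA2, and immature cells already transcribe granule protease and receptor genes. Gata2 is also a gene of stem and early progenitor cells, so it does not mark the mast cell and basophil lineage alone.

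GATA2 binds the core GATA in DNA. The RefSeq promoter windows of the members (assembly GRCm38.p6, 250 bases before to 50 bases after an annotated start, written along the gene) were searched for GATA sites. Whether GATA2 regulates these genes in these cells was not tested. All 8 genes had a window, 10 windows in all, since Gata2 and Cyp11a1 each have 2 annotated starts. A GATA site was the core GATA with A or T before it and A or G after it, on either strand. At least 1 was found in 6 of the 10 windows, those of Fcer1a, Ms4a2, Cpa3, Prss34, Hdc and the second start of Cyp11a1, while 29.8% of all 32851 promoter windows of this length hold one. Windows of Fcer1a, Ms4a2 and Cpa3, which were higher in Line 3, and of Hdc, which was lower in both lines, are shown as examples. Each window shown holds a GATA site. The windows without one, those of Mcpt8, Gata2 and the first start of Cyp11a1, are not shown. Nor are those of Prss34 and the second start of Cyp11a1, although Cyp11a1 had the largest difference in Line 3. Capitals mark the GATA sites, and a site on the opposite strand is seen here as its reverse complement.
Fcer1a, chr1:173227180-173227479, minus strand: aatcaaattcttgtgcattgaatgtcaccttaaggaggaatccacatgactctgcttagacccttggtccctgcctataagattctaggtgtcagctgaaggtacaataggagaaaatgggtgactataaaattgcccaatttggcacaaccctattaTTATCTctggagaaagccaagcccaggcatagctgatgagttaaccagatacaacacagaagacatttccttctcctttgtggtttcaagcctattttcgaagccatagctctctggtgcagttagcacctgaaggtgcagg
Ms4a2, chr19:11623670-11623969, minus strand: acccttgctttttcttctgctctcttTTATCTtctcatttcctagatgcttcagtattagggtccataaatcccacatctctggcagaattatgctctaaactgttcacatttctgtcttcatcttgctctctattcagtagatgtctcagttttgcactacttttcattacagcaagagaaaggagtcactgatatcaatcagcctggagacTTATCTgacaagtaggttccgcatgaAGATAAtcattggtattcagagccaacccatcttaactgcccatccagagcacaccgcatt
Cpa3, chr3:20242132-20242431, minus strand: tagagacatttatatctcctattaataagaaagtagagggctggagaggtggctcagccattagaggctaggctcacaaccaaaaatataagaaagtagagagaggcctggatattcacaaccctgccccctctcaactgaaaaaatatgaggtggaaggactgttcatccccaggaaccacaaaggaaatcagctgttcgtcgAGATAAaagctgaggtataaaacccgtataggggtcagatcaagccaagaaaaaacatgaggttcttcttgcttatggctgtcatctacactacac
Hdc, chr2:126618629-126618928, minus strand: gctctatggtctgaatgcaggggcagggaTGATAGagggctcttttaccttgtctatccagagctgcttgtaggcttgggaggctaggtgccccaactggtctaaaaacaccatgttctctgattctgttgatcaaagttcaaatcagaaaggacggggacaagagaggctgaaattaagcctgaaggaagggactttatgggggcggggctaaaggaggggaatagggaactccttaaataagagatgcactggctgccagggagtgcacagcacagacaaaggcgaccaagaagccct

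The site of Cpa3 began at -46 from the annotated start and that of Fcer1a at -92. Ms4a2 had 3 sites, at -224, -37 and -11, and that of Hdc lay far upstream at -221. The windows of Prss34 and Cyp11a1 held sites at -31 and -231. Neither window of Gata2 and not that of Mcpt8 held these letters. None of the 8 sites overlapped a match to another motif searched. E-boxes (CANNTG) were found in 7 of the 10 windows, against 72.3% of all windows. RUNX sites (TGTGGT) were found in 4 of the 10, against 16.8%, and ETS cores (GAGGAA) in 4 of the 10, against 28.3%. The STAT site TTCNNNGAA was found in 0 of the 10 windows and in 8.3% of all windows. A match describes letters alone, and binding was not measured.

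**Figure D1:**
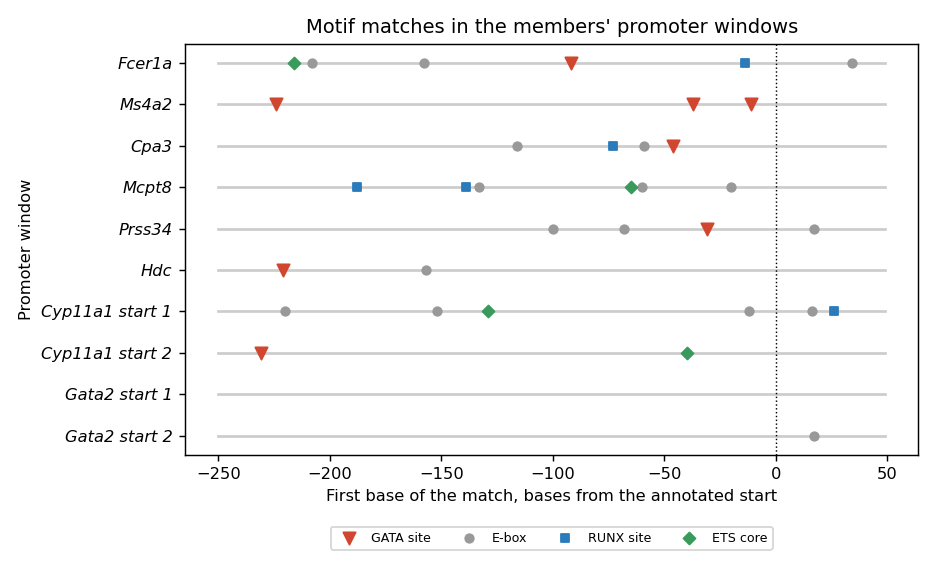
Position of motif matches, in bases from the annotated start, in the 10 promoter windows of the 8 genes (1 grey line per window). GATA sites, drawn as red triangles, lie at -46 in Cpa3, -92 in Fcer1a and -224, -37 and -11 in Ms4a2, and none is drawn for Gata2 or Mcpt8.

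Line 3 was first compared with wild type. Of the 7 measured genes, 6 lay 2-fold or more above wild type in Line 3, and Hdc was lower by less than 2-fold. Over all 10864 genes that passed the filter, 3.57% lay 2-fold or more above wild type in Line 3 and 4.46% lay 2-fold or more below it. Over the 9767 genes that, like the members, lay above the median of all 3 arrays, these shares were 2.33% and 3.35%. Because the members were chosen with earlier results of these data known, setting them against such shares is a description and no test. The median difference of the 7 genes was 1.40 on the log2(intensity + 16) scale, which is used for every difference here, against 0.12 over all genes. In bulk RNA such as this, more cells of a type and more RNA per cell cannot be told apart. In Line 6, none of the 7 genes was 2-fold above or below wild type, while 2.57% of all genes were past the limit upward and 2.41% downward. The Line 6 median was 0.21, against 0.06 over all genes, and it was -0.029 when each array was centred on its median, a step that took the median of all genes to -0.17. Both lines were compared with the same wild type array and share its chance values.

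**Figure D2:**
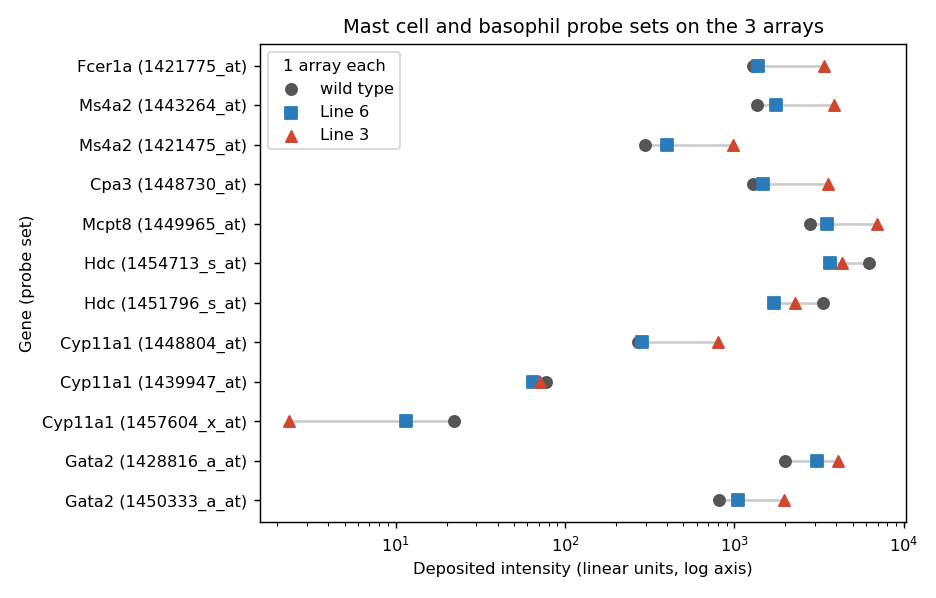
Deposited intensity, on a log axis, of the 12 probe sets of the 7 measured genes, with 1 point per array. In 8 of the 12 probe sets Line 3 (red triangles) is the highest and wild type (grey circles) the lowest, and both Hdc probe sets are highest in wild type.

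The high-affinity IgE receptor binds IgE through its alpha chain, encoded by Fcer1a. Its probe set read an intensity of 1281 in wild type cells, 1373 in Line 6 cells and 3396 in Line 3 cells. Wild type and Line 6 lay close together and Line 3 stood above both. Line 3 was 2.63-fold above wild type (1.40) and 2.46-fold above Line 6 (1.30), while Line 6 differed from wild type by 0.10, or by -0.14 after centring on array medians. Among all genes, 0.985% had a difference between Line 3 and wild type at least as high.

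Ms4a2 encodes the beta chain, which amplifies the receptor's signal. Of its probe sets the brighter read 1351 in wild type cells, 1752 in Line 6 cells and 3857 in Line 3 cells, and the dimmer read 299, 398 and 979. The 2 probe sets gave the same order of arrays, with Line 3 highest, Line 6 between and wild type lowest. Line 3 was 2.83-fold above wild type on the brighter probe set and 3.16-fold on the dimmer one. Line 6 lay 0.37 and 0.40 above wild type, and 0.13 on the brighter one after centring.

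The gamma chain gene Fcer1g, which the IgE receptor shares with other Fc receptors of myeloid cells, did not follow the alpha and beta chains. It read 10438 in wild type cells, 8273 in Line 6 cells and 8377 in Line 3 cells. Both lines were lower than wild type and inside 2-fold, by -0.33 in Line 6 (-0.57 after centring) and -0.32 in Line 3 (-0.35 after centring). Fcer1g was singled out after its values were seen.

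Cpa3 encodes carboxypeptidase A3, a protease stored with heparin in mast cell granules and also made by basophils and their progenitors. It read 1281 in wild type cells, 1480 in Line 6 cells and 3579 in Line 3 cells. Line 3 was again the array that stood apart, 2.77-fold above wild type and 2.40-fold above Line 6. The Line 6 difference of 0.21 was -0.029 after centring.

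Mcpt8 encodes mast cell protease 8, which despite its name is a protease of mouse basophils. It read 2778 in wild type cells, 3529 in Line 6 cells and 6939 in Line 3 cells. The order of arrays was that of Ms4a2, and Line 3 was 2.49-fold above wild type. Its difference between the lines, 0.97 or 1.96-fold, lay just inside the 2-fold limit and was 1.17 after centring. Prss34, another basophil protease gene, is not reported.

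Hdc encodes histidine decarboxylase, which makes histamine and is also transcribed in other myeloid cells, neutrophils among them. The brighter of 2 probe sets read 6211 in wild type cells, 3677 in Line 6 cells and 4343 in Line 3 cells, and the dimmer read 3326, 1724 and 2274. Wild type was the highest array on both and Line 6 the lowest. The brighter probe set lay -0.51 from wild type in Line 3 and -0.75 in Line 6, and the dimmer one -0.54 and -0.94, so no difference of Hdc reached 2-fold on the deposited scale. Line 3 was above Line 6 by 0.24 and 0.40. Hdc was the 1 measured member with a lower level in Line 3 than in wild type. Of 14 measured neutrophil markers, 6 were at least 2-fold lower than wild type in Line 3 and 4 in Line 6, and none was 2-fold higher. Over all genes, 4.46% were 2-fold lower in Line 3 and 2.41% in Line 6. Not all 14 markers were lower: Ctsg, Elane, Prtn3 and Mpo lay 0.10 to 0.31 above wild type in Line 3. In Line 6, 2 of the 14 lay above wild type, or 0 after centring, 3 after quantile normalization and 4 after cyclic loess. The part of neutrophil markers in the Hdc difference was not tested.

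Cyp11a1 encodes the side-chain cleavage enzyme that turns cholesterol into pregnenolone, the first step of steroid synthesis, and it is transcribed in mast cells and basophils as well as in steroid-making organs. Its brightest probe set read 269 in wild type cells, 284 in Line 6 cells and 800 in Line 3 cells. Line 3 stood apart and was 2.86-fold above wild type and 2.72-fold above Line 6, the largest differences among the brightest probe sets of the 7 genes on the deposited scale. Its Line 6 difference of 0.07 turned to -0.09 after quantile normalization, -0.16 after centring and -0.05 after cyclic loess. The other 2 probe sets did not show the same pattern. One read 77.1, 64.7 and 71.2, and the other 22.2, 11.5 and 2.35, in wild type, Line 6 and Line 3. Both lay below the median intensity of their arrays, which ran from 96.2 to 116, where a level cannot be told from background because no detection calls came with the values. The lower one gave a difference of -1.06 between Line 3 and wild type.

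Gata2 encodes the GATA-binding transcription factor of the lineage. On the brighter probe set it read 1984 in wild type cells, 3056 in Line 6 cells and 4114 in Line 3 cells, and on the dimmer one 809, 1050 and 1966. Line 3 was highest and wild type lowest on both. Line 3 was 2.07-fold above wild type on the brighter probe set and 2.40-fold on the dimmer one. The brighter value is just past the limit and ranged from 1.01 to 1.07 over the 4 scalings. In Line 6 the differences were 0.62 (0.38 after centring) and 0.37, and Line 3 lay 0.43 (0.63 after centring) and 0.90 above Line 6.

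**Figure D3:**
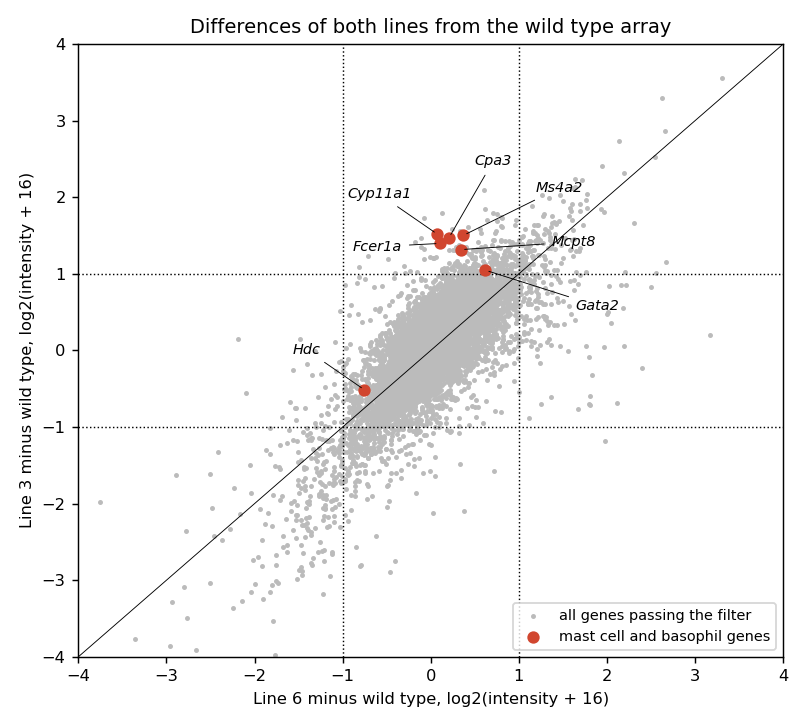
Difference from wild type in Line 6 (horizontal) and Line 3 (vertical), in log2(intensity + 16) units, for the 10864 genes that passed the filter (grey) and the 7 measured members (red). Dotted lines mark 2-fold, the solid line marks equal differences, and 4 genes lie outside the axes. Fcer1a, Ms4a2, Cpa3, Mcpt8 and Cyp11a1 lie together at 1.32 to 1.52 in Line 3 and 0.07 to 0.37 in Line 6.

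Next, Line 3 was set against Line 6. All 7 genes were higher in Line 3 than in Line 6, and 4 of them, Fcer1a, Ms4a2, Cpa3 and Cyp11a1, by 2-fold or more. Over all genes, 0.709% lay 2-fold or more above Line 6 in the Line 3 cells and 1.58% lay as far below it. The comparison does not use the wild type array. The median difference of the 7 genes was 1.13, against 0.05 over all genes. It was 1.33 after centring on array medians, which moved the median of all genes to 0.25, and then 5 of the 7 genes passed, Mcpt8 included. On the deposited scale, 38 of the 10864 genes (0.35%) were 2-fold or more above both other arrays in Line 3, and the same 4 members were among them.

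**Figure D4:**
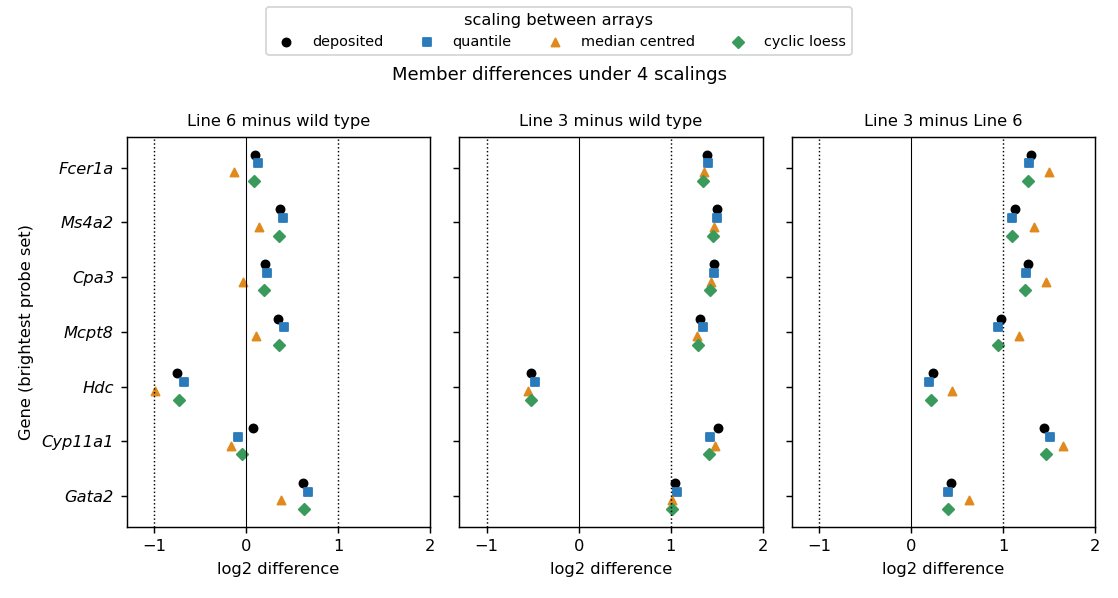
Difference of each of the 7 measured genes, in log2 units, in the 3 comparisons under 4 scalings of the arrays (symbols), with dotted lines at 2-fold. In Line 3 minus wild type the 6 genes other than Hdc lie between 1.01 and 1.52, while in Line 6 minus wild type Fcer1a, Cpa3 and Cyp11a1 have points on both sides of 0.

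The genes whose pair of differences from wild type lay nearest to the members' medians (0.21 in Line 6 and 1.40 in Line 3) were sought among 10387 named genes over the 3 arrays, by Euclidean distance in log2 units. The 6 nearest were Zfp438 (0.09), Zfp975 (0.10), Nme4 (0.10), Rcn3 (0.11), Cd200r3 (0.12) and Gaa (0.14), and 14 genes lay within 0.25. Cd200r3, an activating receptor gene of mast cells and basophils, read 144 in wild type cells, 184 in Line 6 cells and 400 in Line 3 cells. Its other, dimmer probe set lay 0.82 above wild type in Line 6 and 1.53 in Line 3. By the brighter probe set, Cd200r3 stood at rank 5, at rank 11 after quantile normalization and at rank 1 after cyclic loess. Centring moves all genes alike and cannot change this list. Of the 6, 1 (Nme4) remained after quantile normalization and 2 (Nme4 and Cd200r3) after cyclic loess, so the other names depend on the scaling. With 3 arrays, such nearness is a description of 3 values.

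Other genes of the basophil list were mostly higher in Line 3 than in Line 6, a minority of them by 2-fold. Of the further mast cell genes only 4 passed the filter, and 3 of these were higher in Line 3 than in Line 6, none by 2-fold. Of 14 further basophil genes, 12 passed the filter, 10 of them by lying above the median of every array, and the counts here are over these 10. In Line 3, 2 were at least 2-fold above wild type (1 after centring or cyclic loess) and none was 2-fold below, with a median of 0.27. In Line 6 none was 2-fold above and 1 was 2-fold below (4 after centring), with a median of -0.17. All 10 were higher in Line 3 than in Line 6 (9 after quantile normalization or cyclic loess), 3 of them by 2-fold (4 after centring), and the median was 0.66. Those 3 were Cd200r3, Csf1 and Ccl3, and Csf1 and Ccl3 are not genes of basophils alone. Over the 9767 genes above the median of every array, 2.33% were 2-fold higher than wild type in Line 3. In Line 6, 1.28% were 2-fold higher and 1.69% lower. Between the lines, 0.348% were 2-fold higher in Line 3, and the median of all 10864 genes was 0.05. Cd200r3 lay 1.38 above wild type in Line 3 and 0.32 in Line 6. Its other probe set lay at 1.53 and 0.82, and at 0.71 between the lines, inside 2-fold. Itga2, encoding an integrin alpha chain carried by basophils, read 57.6 in wild type cells, 106 in Line 6 cells and 196 in Line 3 cells, so that Line 6 lay 0.73 and Line 3 lay 1.53 above wild type, and it passed the filter only through Line 3, so it is not among the 10. Csf1, the macrophage growth factor gene, read 792, 710 and 1630, and its Line 3 difference from wild type was 1.03, or 0.95 to 0.99 under the other scalings. Ccl3, a chemokine gene of activated leukocytes, read 4638, 2635 and 9008. It lay 0.96 above wild type in Line 3, or 1.01 after quantile normalization, and 1.77 above Line 6. Osm, the oncostatin M gene, was lower in both lines, by -1.68 in Line 6 and -0.87 in Line 3.

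Of 20 further mast cell genes, 15 had a probe set and 4 passed the filter: Kit, Slc18a2, Srgn and Adora3. None of the 4 differed by 2-fold in any comparison, as was so for most of all genes, and their median was 0.19 in Line 3 and 0.44 in Line 6. Kit, the stem cell factor receptor that mast cells keep and most other blood cells lose, read 603 in wild type cells, 899 in Line 6 cells and 923 in Line 3 cells. It was higher in both lines, by 0.56 in Line 6 (0.33 after centring) and 0.60 in Line 3 (0.57 after centring). The chymase and tryptase genes of mature mast cells, 7 in number (Mcpt1, Mcpt2, Mcpt4, Cma1, Tpsab1, Tpsb2 and Tpsg1), all failed the filter. Their 21 intensities ran from 0.27 to 104, 12 of them below 16, and their sums were 87.0 in wild type cells, 212 in Line 6 cells and 84.6 in Line 3 cells. These 7 genes were grouped after their values were seen.

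Signalling partners of the IgE receptor went both ways. Of 13 measured genes, 3 lay 2-fold or more above wild type in Line 3, 1 did in Line 6, and none was 2-fold lower, while none differed by 2-fold between the lines. Over all genes, 3.57% lay 2-fold or more above wild type in Line 3 and 2.57% in Line 6. After quantile normalization the Line 3 count of the 13 was 2 and after cyclic loess 1. Their medians were -0.10 in Line 3 and -0.19 in Line 6. The adaptor gene Lat read 185, 382 and 429 in wild type, Line 6 and Line 3, which put Line 6 at 0.99 and Line 3 at 1.15 above wild type. The kinase gene Fyn lay 1.03 above wild type in Line 6 and 1.04 above it in Line 3, and was past 2-fold in neither line after quantile normalization or cyclic loess, and not in Line 6 after centring (0.80). Its other probe set lay 0.88 above wild type in Line 6 and 0.31 in Line 3. Plcg1, a phospholipase gene, lay 0.52 above wild type in Line 6 and 1.04 in Line 3, and at 0.97 in Line 3 after cyclic loess. Its other probe sets gave values down to -0.34 in Line 6 and 0.32 in Line 3.

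Transcription factors and receptors of the lineage mostly lay inside 2-fold. Among 18 measured regulators, only Ikzf2, a zinc finger gene of the Ikaros family, passed 2-fold, at 1.03 in Line 6 and 1.20 in Line 3, and in Line 6 it was inside 2-fold under the 3 other scalings. Its lowest probe set lay 0.41 above wild type in Line 3. Over all genes, 3.57% were 2-fold higher and 4.46% 2-fold lower than wild type in Line 3, and 2.57% and 2.41% in Line 6. The medians of the regulators were 0.25 in Line 3 and 0.10 in Line 6, or -0.13 in Line 6 after centring. Gata1, the related factor of erythroid cells, mast cells and eosinophils, read 773 in wild type cells, 1416 in Line 6 cells and 1187 in Line 3 cells. Unlike Gata2 it was higher in Line 6 than in Line 3, by a difference between the lines of -0.25 (-0.051 after centring), within 2-fold. Steroid and histamine genes beside Cyp11a1 and Hdc were mostly dim, and 6 of 13 with a probe set passed the filter. The histamine receptor gene Hrh2 was at least 2-fold lower in Line 3 (-1.24 there and -0.94 in Line 6, or -1.18 to -1.14 in Line 6 under the other scalings) and none was 2-fold higher. Their median difference from wild type was -0.21 (Line 3) and -0.23 (Line 6). Fdx1, encoding the ferredoxin that passes electrons to the side-chain cleavage enzyme, lay 0.29 above wild type in Line 6 (0.05 after centring) and 0.57 in Line 3.

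**Figure D5:**
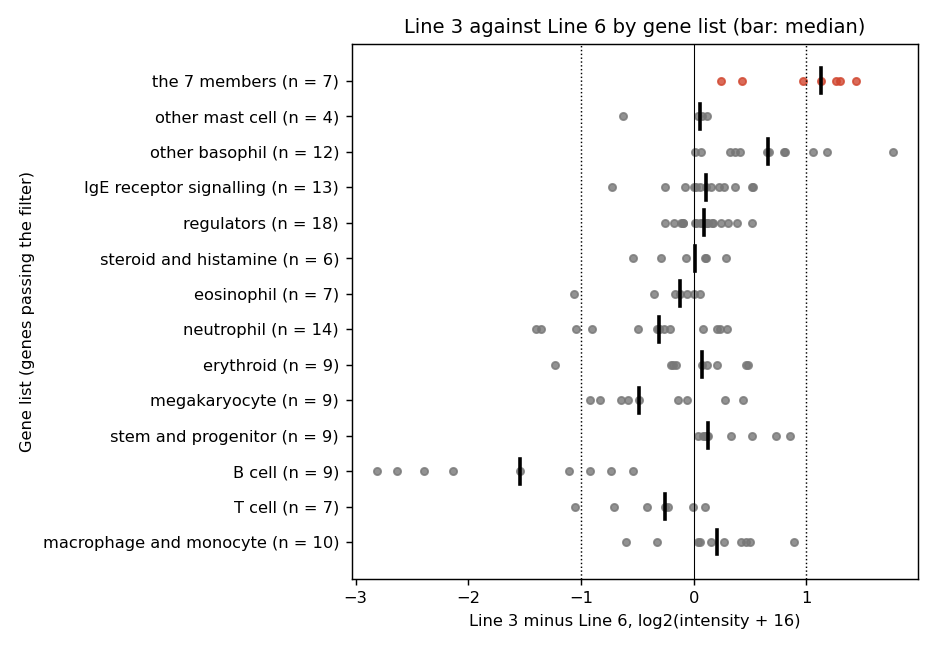
Difference between Line 3 and Line 6, in log2(intensity + 16) units, of the 7 measured members (red) and of the genes of 13 other lists that passed the filter (grey), with a bar at each median and dotted lines at 2-fold. The members have a median of 1.13, the other genes of the basophil list 0.66, those of the mast cell list 0.06 and B cell markers -1.54. Over the 6 B cell markers above the median of every array it is -1.01.

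Markers of other cells were read on the same arrays, and their part in the members' differences was not tested. For the counts below, 3.57% of all genes were 2-fold higher and 4.46% 2-fold lower than wild type in Line 3. In Line 6 these shares were 2.57% and 2.41%. Eosinophil markers, which share granule biology with basophils, were higher in both lines. Their intensities summed to 44859 in wild type cells, 61447 in Line 6 cells and 57288 in Line 3 cells. All 7 of 7 measured genes lay above wild type in each line, and none (Line 3) or 1 (Line 6, 0 after centring) was past 2-fold. Unlike the members, only 2 of the 7 were higher in Line 3 than in Line 6 (median -0.12), but after centring 5 were (median 0.08). Of 9 stem and progenitor markers, among them Kit from the mast cell list, 5 lay 2-fold or more above wild type in Line 3 and 3 did in Line 6, with sums of 18497, 21012 and 23745. Procr and Mecom, counted in both, lay below the array median in wild type and so passed the filter only through the lines. Over the 7 markers above the median of every array the counts were 3 in Line 3 and 1 in Line 6 (0 in Line 6 under the 3 other scalings). Sums of neutrophil markers ran the other way, at 180828, 140488 and 125221. Erythroid markers were at 29226, 31873 and 31479 with 1 gene of 9 past 2-fold in each direction in Line 3 and 1 higher in Line 6. Megakaryocyte markers were at 3745, 5229 and 4424, with 1 of 9 genes higher in Line 3 and 3 in Line 6. Of these, Rab27b in both lines and Gp5 in Line 6 passed the filter only through the arrays where they were high, and over the 7 others the counts were 0 in Line 3 and 1 in Line 6 (0 after centring). B cell markers stood at 3617, 11033 and 4082, with 7 of 9 genes past 2-fold upward in Line 6 (6 after centring) and 1 in Line 3 (0 under the 3 other scalings). T cell markers were at 2478, 3816 and 3213 with none of 7 past 2-fold in either line. Macrophage and monocyte markers were at 16939, 15523 and 17129 with 4 of 10 higher and 2 lower in each line. Cd14, counted as lower in both, lay below the array median in Line 6. Over the 9 others the counts were 4 higher and 1 lower in each line (3 and 1 in Line 6 after centring). No marker was listed at 0. The labelled Sca-1 gene Ly6a has no probe set in the annotation and was not checked, while the progenitor genes Kit, Cd34 and Flt3 passed the filter. Every measured neutrophil marker passed it too. Whether neutrophils remained after the lineage depletion named in the labels was not tested.

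On the same arrays, the brighter probe set of Kdm1a lay 0.29 above wild type in Line 6 and 0.50 in Line 3, and the dimmer one lay at -0.0067 and 0.69. Whether these probe sets of the mouse gene read RNA of the construct was not checked, so the values do not give its level in either line. The 3 probe sets of the X-linked Xist were higher and the 2 of the Y-linked Eif2s3y lower in both lines than in wild type, by 0.91 to 2.16 and by -1.78 to -1.16, while between the lines their differences ran from -0.45 to 0.07, so sex mix and genotype cannot be told apart in the comparisons with wild type.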

How the data were processed

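RNA of 3 samples was hybridised to Affymetrix GeneChip arrays after amplification and biotin labelling from 3 ug, per the labels' protocols. The deposited values are intensities on a linear scale, 1 per probe set, and the sources used here do not give the software or scaling. Trimmed by 2% at each end, every array had a mean intensity of 497, which shows a prior scaling by the authors. Of 45037 probe sets, 34945 had 1 gene symbol in the platform annotation, 932 had several and 9160 were not listed. Symbols of 34741 were updated through the Entrez identifier (GRCm38.p6 gene table) and 204 kept their own.

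Differences are of log2(intensity + 16), so those of dim genes are understated. Each gene was read from the probe set with the highest mean log2 value and kept if it reached the array median on 1 array or more, as 10864 of 18193 genes did. A difference of 2-fold or more was called. With 1 array per genotype, no test was run, and the number of arrays limits the precision. Every probe set of the members is named. From 5 related gene lists, genes past 2-fold in any comparison are named, at most 5 per list, besides Kit, Slc18a2, Srgn, Adora3, Fcer1g, Gata1, Fdx1 and the mast cell proteases, which were chosen after their values were seen, and the 6 nearest genes. A further 8 lists of cell type markers are given as counts and sums. Members and lists were chosen with earlier results of these data known. Genes on the array that share sequence could share signal on probe sets with the suffix _s_at or _x_at. Counting past the limit was also run on simulated data, with seeded differences above the limit and the spread between Line 3 and Line 6. That spread was smaller than the spread between Line 3 and wild type (standard deviations 0.38 and 0.60). The simulation therefore does not give the error of the calls. Python 3.11.15, numpy 2.4.6, pandas 2.3.3, matplotlib 3.10.9, R 4.3.3 and limma 3.58.1 (cyclic loess) were used. Alternatives were other scalings, filters, probe set choices, pseudocounts and fold limits.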

Additional observations from a re-analysis of the deposited data

Results flagged for a closer look

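Csf1 and Ccl3, both on the basophil list, lay on opposite sides of wild type in the 2 lines and at least 2-fold apart between them. Csf1 was lower than wild type in Line 6 (-0.15) and higher in Line 3, with a difference of 1.18 between the lines. Its 4 probe sets gave 0.56 to 1.20 between the lines, and -0.29 to 0.41 in Line 6. Ccl3 was lower in Line 6 (-0.81) and higher in Line 3, 1.77 between the lines. Neither difference was tested, because each line had 1 array.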

How the results depend on the processing

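In Line 3, the number of members 2-fold or more above wild type was 6 of 7 under quantile normalization, centring on array medians, cyclic loess, both other filters and both other pseudocounts, 5 of 6 with the median of all probe sets and 5 of 5 with plain _at probe sets. The median of all probe sets left out Cyp11a1, which then failed the filter, and plain _at probe sets left out Hdc and Gata2. In Line 6 the number was 0 throughout, save at a limit of 1.5-fold, where it was 1 (Gata2) against 9.27% of all genes. With a limit of 3-fold it was 0 in Line 3 against wild type and 0 in Line 3 against Line 6, since no member reached 3-fold on its brightest probe set. The median in Line 6 turned from 0.21 to -0.029 after centring. The 222 alternative values of single members include some that could not differ. A filter does not change a gene's difference, and a gene with 1 probe set keeps it under the other probe set choices. Of the 222, 203 kept their direction and their side of the limit. Of the other 19, 5 changed sign, all inside 2-fold in Line 6 (Fcer1a and Cpa3 after centring, and Cyp11a1 after each of the 3 scalings), and 14 crossed a limit, 13 of them because the limit itself was moved. No called difference changed sign. No paired analysis was possible because each genotype has 1 array, and no array could be left out.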
